A study of Mus musculus with 25 samples.

Results

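Vestitol and salviolone, a pair of plant compounds given alone at the same dose, were compared in the brain cortex of a mouse model of amyloid deposition by RNA sequencing. The 10 libraries are the 5 labelled (-)-Vestitol and the 5 labelled Salviolone, of 25 in the series, chosen by these labels and by no measured value. Both groups were male B6C3 mice, 6 months old, that carry APPswe and PSEN1dE9 transgenes, which drive early amyloid plaques. Each mouse received 5 mg/kg of its compound by intraperitoneal injection every day for 3 months. The other 15 libraries serve here as a scale, and they also enter the model from which the spread between mice was estimated. They are a combination group given 2.5 mg/kg of each compound, a model control given vehicle and wild type C57BL/6J mice given vehicle. The model control had the same genotype and strain as the compound groups, and each group held 5 male mice of the same age. The wild type mice therefore differ from the other groups in strain as well as in genotype. The labels do not tell whether mice were littermates, or when tissue was taken and libraries were made, so the compound cannot be told apart from anything that was shared within a group.

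Vestitol is an isoflavan, one of the flavonoids of legumes, and salviolone is a diterpenoid of sage species, so the compounds are not close analogs. Respiration in neurons depends on both genomes of the cell. The mitochondrial chromosome encodes subunits of complex I, complex III, cytochrome c oxidase (complex IV) and ATP synthase (complex V), and its genes are transcribed together from both strands as long precursor RNAs that are cut into single mRNAs. All other respiratory subunits, the mitochondrial ribosomal proteins and the factors that translate mitochondrial mRNAs come from nuclear genes, and complex II is wholly nuclear.

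Total counts per library were 65336993 to 78331946 for vestitol and 59376320 to 72743740 for salviolone, so a gene with no read in a library may still be present at up to 3 counts, or 0.0505 CPM at most. CPM are counts scaled to a common library size, and levels below are CPM unless another unit is named, and fold changes are on the log2 scale, vestitol over salviolone, with their standard error (SE). Genes said to rise or fall did so with vestitol relative to salviolone, unless another group is named. App averaged 4071 ± 311 CPM in vestitol mice, 4605 ± 437 CPM in salviolone mice and 1672 ± 165 CPM in wild type mice (SD, n = 5 each), and Prnp, whose promoter drives such transgenes, averaged 1748 ± 153, 1876 ± 127 and 652 ± 40.4 CPM in those groups. All 10 libraries thus carried the transgene signal. The cortical neuron markers Slc17a7 (1098 to 1362 CPM in vestitol and 1236 to 1388 CPM in salviolone) and Tbr1 (125 to 143 and 134 to 145 CPM) overlapped between the groups. The highest correlation of log2 CPM between any 2 of the 10 libraries was 0.978 across genes, and no library repeated another.

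Across 16515 tested genes, the quasi-likelihood test of edgeR (p adjusted by Benjamini-Hochberg) called 113 genes at an adjusted p under 0.05, which is 0.684% of the genes tested. Of these, 98 (0.593%) were higher with vestitol and 15 (0.0908%) were lower. The calls higher with vestitol comprised all 13 protein genes of the mitochondrial chromosome and 85 nuclear genes, while all 15 calls lower with vestitol were nuclear. At an unadjusted p under 0.05 there were 1935 genes (11.7%), 1102 higher (6.67%) and 833 lower (5.04%), and log2 values were above 0 for 49.2% and below 0 for 50.7% of all genes. Leaving out 1 mouse moved the 113 calls to 39, 35 or 40 without vestitol mouse 1, 2 or 4, and to 204, 14, 30 or 24 without salviolone mouse 1, 3, 4 or 5. When the test was fitted to only the 10 vestitol and salviolone mice, 11 mitochondrial and 30 nuclear genes were called. Of the nuclear genes among the 113 and named below, Zic5, Ube3a, Dgkb and Dach1 kept their calls whichever mouse was left out. Each of the others lost its call without at least 1 mouse. Only 1 pair of compounds was compared at a matched dose, so no adjustment over pairs was needed. In the same model 0 genes were called for vestitol over the model control (1249 or 7.56% at an unadjusted p under 0.05, 44 called by DESeq2, 0 by limma-voom), and 4 genes were called lower for salviolone over the model control (0.0242%, with 116 called by DESeq2 and 0 by limma-voom). These comparisons share the control mice, so their values are given side by side only.

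The coding starts of 3 mitochondrial mRNAs are shown because they come from the genes with the lowest p of the 13, mt-Co3 and mt-Nd5, and from the gene with the smallest fold change, mt-Nd6, and because they are poor in G and C, a property to which the measurements return below. They are the first 90 bases from GENCODE M21 (GRCm38, 5′ to 3′, with G and C in capitals), and the gene coordinates there equal those of the deposited table.
mt-Co3 (chrM:8607-8696, plus strand): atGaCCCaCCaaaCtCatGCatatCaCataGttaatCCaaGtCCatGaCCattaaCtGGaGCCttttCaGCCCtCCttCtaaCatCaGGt
mt-Nd5 (chrM:11742-11831, plus strand): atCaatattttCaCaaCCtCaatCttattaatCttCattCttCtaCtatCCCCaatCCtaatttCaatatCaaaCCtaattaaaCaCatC
mt-Nd6 (chrM:13981-14070, minus strand): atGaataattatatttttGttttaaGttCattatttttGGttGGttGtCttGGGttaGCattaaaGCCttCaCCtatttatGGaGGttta

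The whole mRNAs hold 38.9% G and C in mt-Co3, a subunit of cytochrome c oxidase, 37.1% in mt-Nd5, a subunit of complex I, and 34.1% in mt-Nd6, the only complex I gene on the other strand. Over the 13 genes the G and C content was 31.9 to 41.1%, against a median of 50.0% over the longest transcripts of all tested genes.

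The mitochondrial chromosome supplied a larger share of the cortex RNA counts in vestitol mice than in salviolone mice. The 13 genes made up 0.781, 0.829, 0.759, 0.755 and 0.813% of all counts in vestitol mice 1 to 5, against 0.620, 0.580, 0.434, 0.424 and 0.409% in salviolone mice 1 to 5. The groups did not overlap, and salviolone mice 1 and 2 lay nearest to vestitol. The mean shares were 0.787 ± 0.0327% with vestitol and 0.493 ± 0.0988% with salviolone (SD, n = 5 each), a difference of 0.294 percentage points (exact permutation test over mice, two-sided p = 0.00794, the smallest possible with 5 mice against 5). The share was 0.475 to 0.604% in combination mice, 0.561 to 0.816% in model controls and 0.637 to 0.790% in wild type mice. Model controls therefore overlapped both compound groups, and every vestitol mouse lay above every combination mouse. In bulk tissue, fewer cells of a type and less RNA per cell cannot be told apart, and the same holds for fewer mitochondria and less RNA in each.

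**Figure D1:**
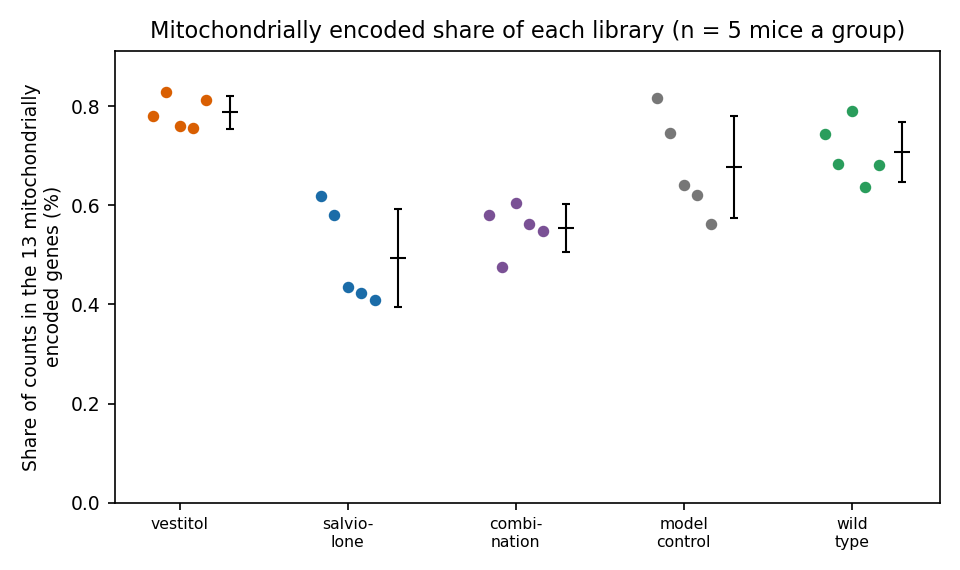
Share of each library's counts (percent, y axis) in the 13 mitochondrially encoded protein genes, by group on the x axis. Each point is 1 mouse, and the bar is the mean with the SD of 5 mice. The 5 vestitol mice sit at 0.755 to 0.829%, all above the salviolone mice at 0.409 to 0.620%, and model controls spread over 0.561 to 0.816%.

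mt-Co3 had 175, 211, 182, 164 and 176 CPM in vestitol mice, against 117, 106, 85.6, 82.9 and 79.9 CPM in salviolone mice. Its log2 fold change, 0.95 ± 0.12 (SE, edgeR quasi-likelihood test, adjusted p = 0.000302), was the largest of the 13, with a 95% interval of 0.71 to 1.19. mt-Nd5 had 931, 1049, 932, 983 and 1141 CPM in vestitol mice, against 653, 672, 508, 536 and 547 CPM in salviolone mice, a log2 fold change of 0.79 ± 0.10 (adjusted p = 0.000302). In both genes the lowest vestitol mouse lay above the highest salviolone mouse, as it did in all 13. Over all tested genes, 485 (2.94%) had groups that did not overlap, 282 (1.71%) with vestitol above and 203 (1.23%) with vestitol below.

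The other complex I subunits rose by similar amounts: mt-Nd1 by 0.77 ± 0.11, mt-Nd2 by 0.84 ± 0.12, mt-Nd3 by 0.77 ± 0.11, mt-Nd4 by 0.74 ± 0.11 and mt-Nd4l by 0.69 ± 0.11 (log2, SE). mt-Cytb, the mitochondrial subunit of complex III, rose by 0.82 ± 0.11, and mt-Co2, which holds the copper site that takes electrons from cytochrome c, rose by 0.73 ± 0.10. The ATP synthase genes mt-Atp6 and mt-Atp8 rose by 0.84 ± 0.11 and 0.80 ± 0.16. Adjusted p ran from 0.000511 to 0.0229 over these 9 genes. The median log2 fold change over the 13 genes was 0.77, beside -0.00 over all tested genes.

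mt-Co1, the catalytic subunit of cytochrome c oxidase, was the most abundant of the 13 and among those that differed least. It had 3637, 3615, 3410, 3257 and 3170 CPM in vestitol mice, against 3100, 2846, 1959, 1892 and 1753 CPM in salviolone mice, a log2 fold change of 0.57 ± 0.13 (adjusted p = 0.0488). Its call was lost in 13 of 25 alternative settings, among them the omission of any 1 vestitol mouse. mt-Nd6 had 459, 438, 423, 482 and 615 CPM with vestitol, against 325, 372, 276, 328 and 350 CPM with salviolone, a log2 fold change of 0.55 ± 0.11 (adjusted p = 0.0229). Salviolone mice 1 and 2 were the highest pair of their group in 12 of the 13 genes, and mt-Nd6 was the exception. It is read from the opposite strand and overlaps mt-Nd5 by 14 bases, and without a stated strand setting its reads cannot be told apart from RNA of the opposite strand.

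Scaled by gene length, the order of the levels was the same under both compounds except that mt-Atp6 and mt-Co2, and mt-Nd2 and mt-Nd1, changed places within their spread. mt-Co1 stood highest with 2212 ± 135 CPM per kb in vestitol mice and 1495 ± 399 CPM per kb in salviolone mice, followed by mt-Nd6 with 931 ± 148 and 636 ± 68.8 CPM per kb and mt-Atp6 with 699 ± 44.6 and 390 ± 63.5 CPM per kb. mt-Nd3 was lowest with 69.7 ± 4.14 and 40.7 ± 4.75 CPM per kb (SD, n = 5 each, vestitol first in each pair). Within the mitochondrial counts, mt-Co1 took 43.2 ± 2.83% in vestitol mice and 46.1 ± 3.13% in salviolone mice, mt-Nd5 took 12.7 ± 0.799% and 11.9 ± 1.05%, and mt-Co3 took 2.29 ± 0.170% and 1.91 ± 0.0618%. mt-Atp8 shares 43 bases with mt-Atp6, mt-Nd4l shares 7 with mt-Nd4, and mt-Atp6 shares 1 with mt-Co3, so neighbouring values are not wholly separate measurements. How reads that also match nuclear copies of mitochondrial DNA were counted is not given in the sources used here.

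Set against the model control, the compounds stood on opposite sides for the 13 genes, though none was called in either comparison. The median log2 value was 0.32 for vestitol over control and -0.46 for salviolone over control. For mt-Co3 the values were 0.53 (adjusted p = 0.251) and -0.42 (adjusted p = 0.167), and for mt-Nd5 they were 0.32 (adjusted p = 0.448) and -0.46 (adjusted p = 0.0712). Control mice ranged from 103 to 163 CPM for mt-Co3, below every vestitol mouse, and overlapped salviolone mouse 1 and mouse 2. Vestitol and control mice overlapped in 12 of the 13 genes, and salviolone and control mice in 11.

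**Figure D2:**
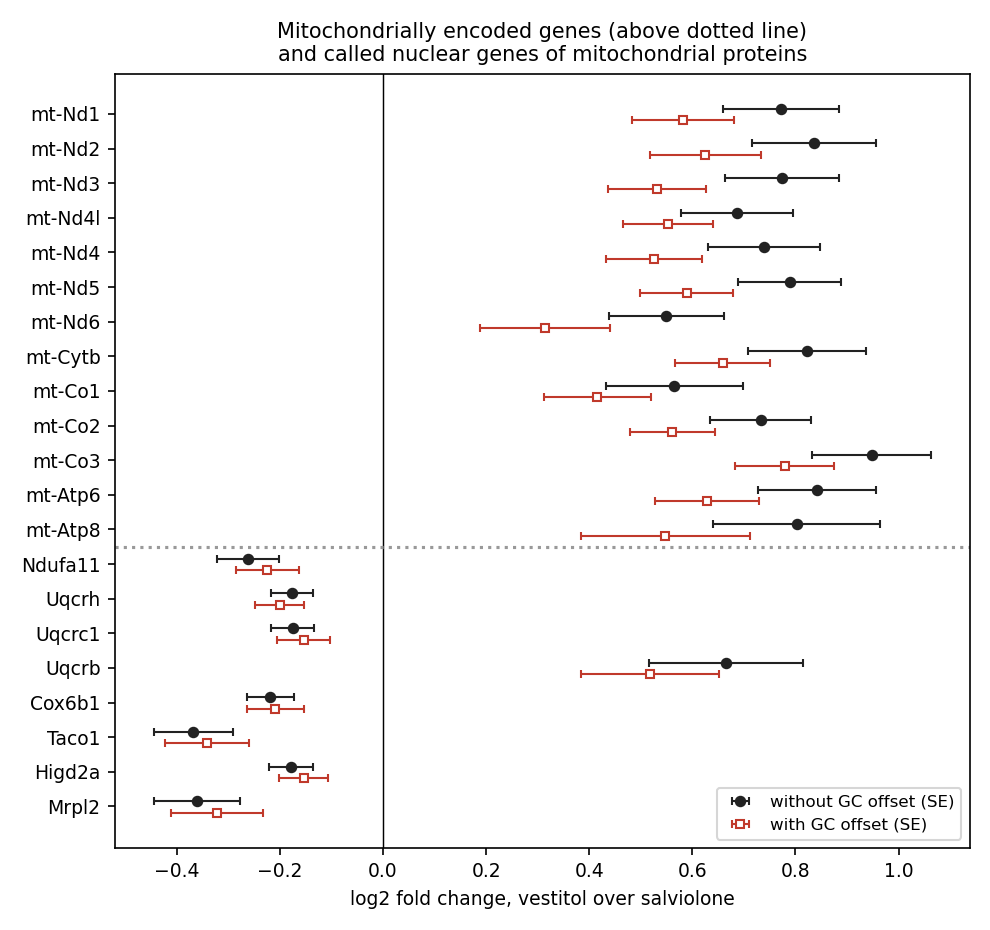
Log2 fold change of vestitol over salviolone (x axis) for the 13 mitochondrially encoded genes, above the dotted line, and 8 called nuclear genes of mitochondrial proteins below it. Filled circles are the model without and open squares the model with an offset for transcript G and C content, and bars are SE. All 13 mitochondrial genes lie to the right of 0 in both models, with medians of 0.77 and 0.56, while 7 of the 8 nuclear genes lie to the left.

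The nuclear genes of the same respiratory complexes did not follow. Of 83 tested, 1 rose (Uqcrb), 4 fell (Cox6b1, Ndufa11, Uqcrh and Uqcrc1) and 78 did not pass the test, with 74 of the 83 log2 values below 0 and a median of -0.10, beside -0.00 over all tested genes. The promoters of the 4 genes that fell are shown. The genes were picked by their calls in these same data, so their shared direction is no separate result. Each promoter is a 300-base window from 250 bases before to 50 after the start, from RefSeq (GRCm38.p6, 5′ to 3′ along the gene). Capitals mark letters found by a search of both strands for the motif of the respiratory gene activator NRF1 (GCGCANGCG, which can match both strands at overlapping places) and for the ETS motif bound by GABP (CCGGAAGT).
Cox6b1 (chr7:30626065-30626364, minus strand): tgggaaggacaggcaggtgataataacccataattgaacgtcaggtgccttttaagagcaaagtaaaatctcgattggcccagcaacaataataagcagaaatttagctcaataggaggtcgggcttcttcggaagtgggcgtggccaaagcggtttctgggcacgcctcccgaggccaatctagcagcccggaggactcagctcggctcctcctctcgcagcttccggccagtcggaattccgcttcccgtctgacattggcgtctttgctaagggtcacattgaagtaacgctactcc
Ndufa11 (chr17:56717512-56717811, plus strand): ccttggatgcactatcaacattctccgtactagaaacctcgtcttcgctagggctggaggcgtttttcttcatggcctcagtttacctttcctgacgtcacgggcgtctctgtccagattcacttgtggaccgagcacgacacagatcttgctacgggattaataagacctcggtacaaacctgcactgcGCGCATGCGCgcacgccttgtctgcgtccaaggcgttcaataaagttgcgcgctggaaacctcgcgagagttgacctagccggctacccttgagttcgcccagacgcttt
Uqcrh (chr4:116075021-116075320, minus strand): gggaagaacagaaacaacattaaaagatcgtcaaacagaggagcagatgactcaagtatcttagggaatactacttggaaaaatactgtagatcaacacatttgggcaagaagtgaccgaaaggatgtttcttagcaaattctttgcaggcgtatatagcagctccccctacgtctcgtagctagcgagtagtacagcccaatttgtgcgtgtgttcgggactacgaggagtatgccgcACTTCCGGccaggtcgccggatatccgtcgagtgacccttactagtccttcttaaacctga
Uqcrc1 (chr9:108936398-108936697, plus strand): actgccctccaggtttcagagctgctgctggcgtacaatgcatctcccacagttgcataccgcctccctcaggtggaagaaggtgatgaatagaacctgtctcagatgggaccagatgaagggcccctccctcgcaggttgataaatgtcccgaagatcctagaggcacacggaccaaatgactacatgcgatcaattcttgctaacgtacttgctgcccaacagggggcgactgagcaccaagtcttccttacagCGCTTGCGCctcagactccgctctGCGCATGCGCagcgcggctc

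Of these promoters Uqcrc1 held 3 NRF1 matches and Ndufa11 held 2, overlapping ones included, Uqcrh held 1 ETS match, and Cox6b1 held neither set of letters. RefSeq windows were matched for 68 of the 83 respiratory genes, and 29.4% of them held the NRF1 letters and 7.35% the ETS letters, against 6.47% and 4% of 27025 promoters. The YY1 letters AAGATGGCG, searched as well, were in 8.82% of the respiratory windows and 1.49% of all, and in none of the 4 shown. A match describes the letters only.

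Cox6b1, a subunit that bridges the monomers of the cytochrome c oxidase dimer, had 135, 129, 129, 120 and 126 CPM in vestitol mice, against 148, 149, 141, 157 and 148 CPM in salviolone mice. The groups did not overlap, and the log2 fold change was -0.22 ± 0.05 (edgeR, adjusted p = 0.0232). Taco1, which activates translation of mt-Co1 mRNA in mitochondria, had 14.5, 11.7, 13.5, 13.8 and 11.3 CPM with vestitol, against 18.1, 17.3, 16.1, 15.1 and 16.9 CPM with salviolone. Again no vestitol mouse reached the salviolone range, and the log2 fold change was -0.37 ± 0.08 (adjusted p = 0.0229). Cox6b1 lies at chr7:30316286-30325576 and Taco1 at chr11:105956887-105964438 (mm39), so they are not neighbours. GENCODE places an antisense gene, Taco1os, across the start of Taco1, and without a stated strand setting its reads cannot be told apart. The call of Cox6b1 ended without vestitol mouse 2 or 4 or salviolone mouse 3, 4 or 5. That of Taco1 ended without vestitol mouse 2 or salviolone mouse 3 or 5. Both calls were also lost when only the 10 vestitol and salviolone mice were fitted, and with the composition offset or the tissue scores described below. In all, Cox6b1 lost its call in 8 of 26 alternative settings and Taco1 in 6 of 26.

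Among the other genes that fell, Uqcrc1, a core subunit of complex III, had 228 to 242 CPM with vestitol (median 232) and 254 to 272 CPM with salviolone (median 264), a log2 fold change of -0.18 ± 0.04. Uqcrh, the hinge protein of complex III, had 105 to 112 and 117 to 132 CPM in those groups (-0.18 ± 0.04). Ndufa11, an accessory subunit of complex I, overlapped, with 27.2 to 32.7 CPM under vestitol and 32.0 to 38.0 CPM under salviolone (-0.26 ± 0.06). The exception, Uqcrb, another subunit of complex III, had 8.66 to 11.3 CPM with vestitol and 5.20 to 7.41 CPM with salviolone and rose by 0.67 ± 0.15. Its level was far below those of Uqcrc1 and Uqcrh, and its transcript holds 40.4% G and C. Adjusted p for these 4 genes lay between 0.0350 and 0.0407. With the offset for G and C content described below, none of the 4 kept its call (Uqcrb at 0.52, adjusted p = 0.121). GENCODE lists pseudogenes of Uqcrh, and how reads that match several places were counted is not given in the sources used here.

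By complex, the nuclear lists read 0 higher and 1 lower of 37 for complex I (median log2 -0.12), 0 and 0 of 4 for complex II (-0.05), 1 and 2 of 10 for complex III with cytochrome c (-0.12), 0 and 1 of 15 for complex IV (-0.08) and 0 and 0 of 17 for complex V (-0.09). The complex V list is incomplete, since 17 of its 34 names are in the table. In complex II, Sdhb had a log2 value of -0.12 ± 0.04 (adjusted p = 0.14) and did not pass. Of 22 assembly factors of complex IV, Taco1 alone was called. Of 78 mitochondrial ribosomal proteins, 1 fell, Mrpl2, a protein of the large subunit, by 0.36 ± 0.08 on the log2 scale (adjusted p = 0.0388), and 55 of the 78 values were negative (median -0.08). Cytosolic ribosomal proteins, outside mitochondria, had 61 of 76 values below 0 (median -0.07) with none called.

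No call fell in the lists of proteins that make, cut and stabilise mitochondrial RNA. The 17 tested genes of mitochondrial transcription and replication had 9 values above and 8 below 0 (median 0.04), the 21 genes of mitochondrial RNA processing and stability had 12 and 9 (median 0.04), and the 13 regulators of mitochondrial biogenesis had 9 and 4 (median 0.06). The lowest p in the first list was that of Mgme1, a nuclease that trims mitochondrial DNA ends (-0.35 ± 0.12, adjusted p = 0.22), and in the second that of Prorp, which cuts tRNAs out of the precursor (0.45 ± 0.15, adjusted p = 0.18).

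Of the 15 genes called lower with vestitol, Zic5 differed most. This zinc-finger gene (chr14:122694207-122703089, mm39) of the Zic family, whose members mark meningeal, thalamic and cerebellar lineages in development, had 2.71, 1.85, 2.70, 2.11 and 2.82 CPM in vestitol mice, against 5.37, 4.53, 4.82, 6.26 and 5.12 CPM in salviolone mice. The groups did not overlap, and the log2 fold change was -1.10 ± 0.20 (adjusted p = 0.0123). The model control ranged from 2.68 to 6.09 CPM and overlapped both groups. All 5 Zic genes had negative values (median -0.86), but the other 4 did not pass, Zic2 at -0.57 ± 0.17 (adjusted p = 0.14) and Zic1 at -1.01 ± 0.39 (adjusted p = 0.28) included.

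The remaining genes that fell changed less, 14 of the 15 by under 1.5-fold. Slc24a3, a sodium, potassium and calcium exchanger, had 122 to 132 CPM with vestitol and 149 to 186 CPM with salviolone (-0.39 ± 0.08, adjusted p = 0.0229). Pgam1, the glycolytic phosphoglycerate mutase, had 307 to 311 CPM with vestitol and 338 to 377 CPM with salviolone (-0.19 ± 0.04, adjusted p = 0.0251). Neither pair of groups overlapped. GENCODE also lists pseudogenes of Pgam1.

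Cisd1, an iron-sulfur protein of the outer mitochondrial membrane, fell by 0.23 ± 0.05 on the log2 scale, with 45.2 to 53.7 CPM under vestitol and 55.4 to 62.7 CPM under salviolone. Stmn3, a regulator of neuronal microtubules, fell by 0.19 ± 0.04, and Snap47, a SNARE protein, by 0.31 ± 0.07, both with overlapping groups. Others were picked out after their values were seen. Higd2a, a factor of respiratory supercomplexes, fell by 0.18 ± 0.04, Dync1i1, a dynein chain of neurons, by 0.21 ± 0.05, and Atg7, an enzyme of autophagosome formation, by 0.48 ± 0.11 (adjusted p for these 6 genes 0.0350 to 0.0483). For Atg7, salviolone mice 1 to 3 had 36.3 to 38.3 CPM and salviolone mice 4 and 5 had 25.1 and 27.2 CPM, beside 20.6 to 25.9 CPM in vestitol mice, so the groups overlapped.

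Of the 85 nuclear genes higher with vestitol, 66 had groups that did not overlap, beside 282 (1.71%) with vestitol above over all tested genes. The calls were made on these same mice, so this count is no separate support. The 85 had a median log2 fold change of 0.39, and 73 changed by under 1.5-fold. In size, the log2 value over the model control was larger for vestitol than for salviolone in 33 of the 85. Both values share the control mice and their errors were not weighed, so this count does not show which compound departed from the control. Ube3a, the ubiquitin ligase of the imprinted Angelman region, had 93.0, 97.4, 82.4, 89.7 and 90.8 CPM in vestitol mice, against 73.5, 65.9, 70.8, 64.7 and 63.7 CPM in salviolone mice. Every vestitol mouse lay above every salviolone mouse, and the log2 fold change was 0.42 ± 0.07 (adjusted p = 0.00192). Abcg2, an efflux transporter of the blood-brain barrier that carries many plant flavonoids, had 10.2 to 13.7 CPM with vestitol and 6.27 to 9.12 CPM with salviolone and rose by 0.55 ± 0.12 (adjusted p = 0.0266). It was the only call among 18 genes of xenobiotic response, of which 9 had values above 0.

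Further nuclear genes are named after their values were seen. Dgkb, a diacylglycerol kinase abundant in striatum, had 111 to 149 CPM with vestitol and 83.8 to 98.9 CPM with salviolone (0.55 ± 0.09, adjusted p = 0.00353). Dach1, a transcription cofactor, had 16.9, 17.1, 15.2, 22.3 and 12.8 CPM in vestitol mice, against 10.1, 11.1, 8.50, 9.80 and 7.55 CPM in salviolone mice (0.84 ± 0.14, adjusted p = 0.00449). Neither gene overlapped between groups, and vestitol mouse 4 was the highest in both. Ppp1r9b, the spine protein spinophilin, was higher with vestitol by 0.20 ± 0.04 (adjusted p = 0.0234), Gpr52, a receptor of striatal neurons, by 0.76 ± 0.16, St8sia2, a polysialyltransferase, by 0.94 ± 0.19 and Meis2, a homeobox factor, by 0.44 ± 0.09 (adjusted p = 0.0229 for each of these 3). Over the model control, St8sia2 stood at 0.10 for vestitol and -0.84 for salviolone, and Gpr52 at 0.16 and -0.60. Dach1 stood at 0.23 and -0.61, and Ube3a at 0.28 and -0.14. None of them was called over the control.

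**Figure D3:**
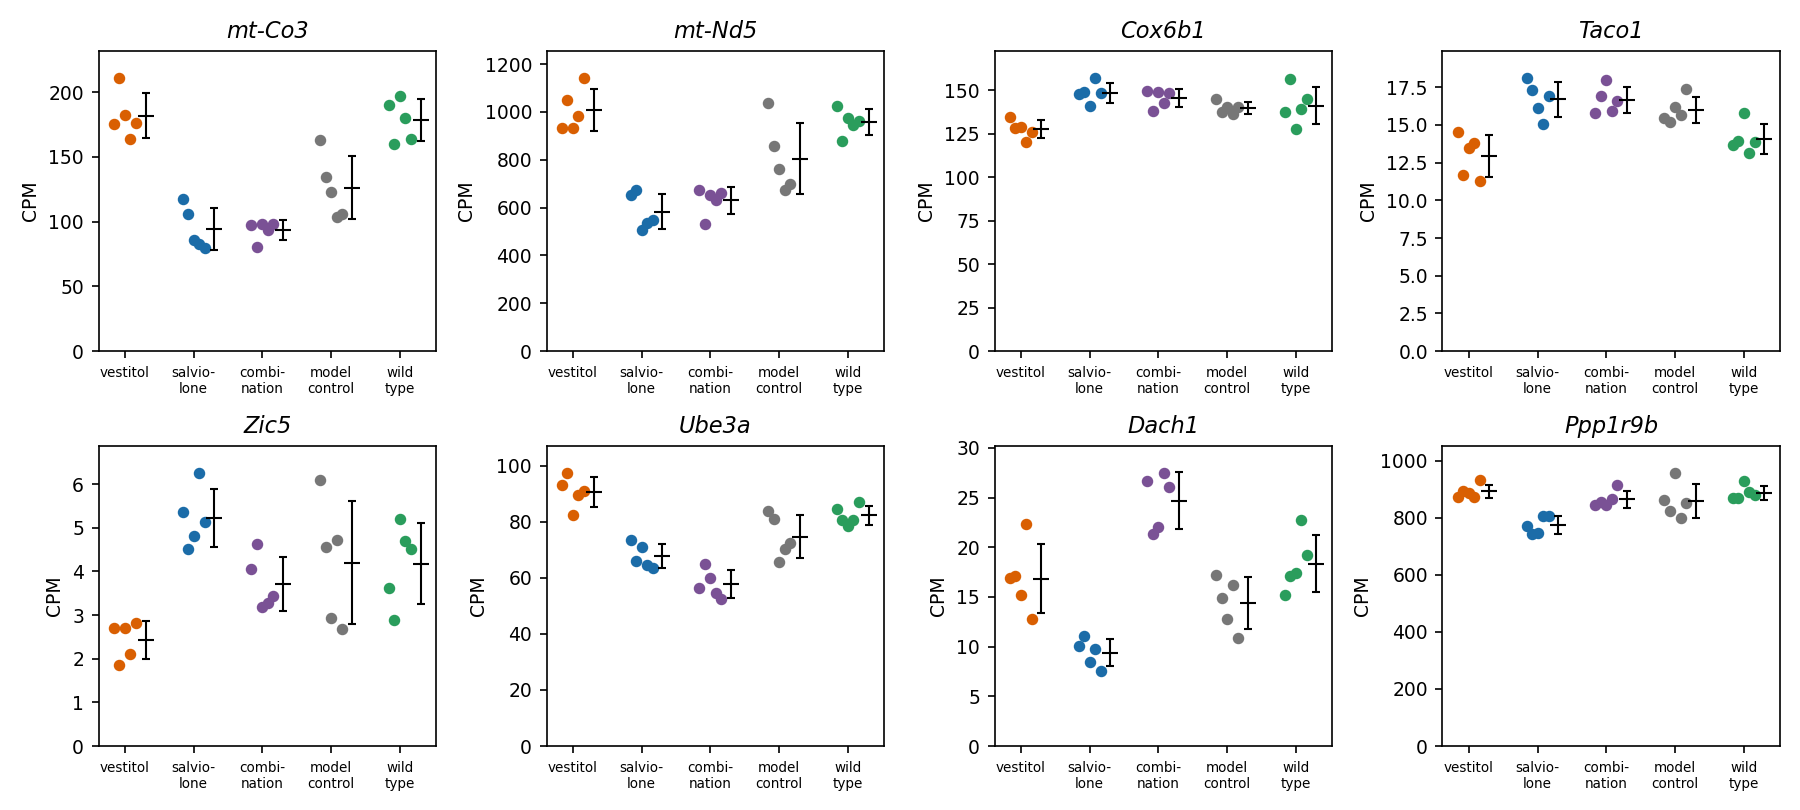
CPM (y axis, from 0) of 8 genes in each mouse of the 5 groups on the x axis, with the mean and SD of 5 mice beside the points. Vestitol lies above salviolone without overlap in mt-Co3, mt-Nd5, Ube3a, Dach1 and Ppp1r9b, and below it in Cox6b1, Taco1 and Zic5.

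Among the called nuclear genes, the direction of change went with the base composition of the transcript. The called nuclear genes that rose had a median G and C content of 40.4%, and those that fell 53.0%, beside 50.0% over all tested genes. Nuclear genes were split by content into 5 equal parts. The lowest part (31.0 to 44.0%, 3229 genes) held 68 genes called higher (2.11%) and 0 called lower, beside 0.593% and 0.0908% over all tested genes. In rising order of content, the other parts held 9 (0.279%), 3 (0.0930%), 2 (0.0619%) and 2 (0.0619%) genes called higher. They held 1, 2, 9 and 3 genes called lower. The median log2 value was 0.10 in the lowest part and 0.02, -0.02, -0.04 and -0.04 in the others. For each library a tilt was taken, the median log2 deviation of the genes in the highest part minus that of the lowest. It was -0.215 to -0.0155 in vestitol mice, and -0.0588, -0.0688, 0.125, 0.132 and 0.156 in salviolone mice 1 to 5, so salviolone mice 1 and 2 lay within the vestitol range. In model controls it was -0.209 to 0.0704. The 1386 nuclear genes that lie in the composition range of the mitochondrial genes had a median of 0.15, with 5th and 95th percentiles of -0.35 and 0.77, and 49 of them (3.54%) were called higher.

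With an offset that takes each library's composition trend out, 20 genes were called (0.121%), 15 higher (0.0908%) and 5 lower (0.0303%), and 15 of them were among the 113. They comprised 10 mitochondrial genes, all but mt-Nd6 (adjusted p = 0.37), mt-Co1 (0.117) and mt-Atp8 (0.205), and the median over the 13 was 0.56. mt-Co3 then stood at 0.78 (adjusted p = 0.000258) and mt-Nd5 at 0.59 (0.00277). Of nuclear genes, Zic5, Dach1, Ppp1r9b and St8sia2 kept their calls. Gpr52 was called as well, but no G and C content was available for it, so the offset left its value as it was. By contrast, Cox6b1 stood at -0.21 (0.132), Taco1 at -0.34 (0.102) and Ube3a at 0.21 (0.132). Atp5l, a subunit of ATP synthase (-0.32, 0.0188), Cycs, the cytochrome c that carries electrons to complex IV (-0.28, 0.0477), Me1, Sec23b and Rtl1 were called with the offset and not in the model without it. The part of composition in the differences was not tested beyond this offset.

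**Figure D4:**
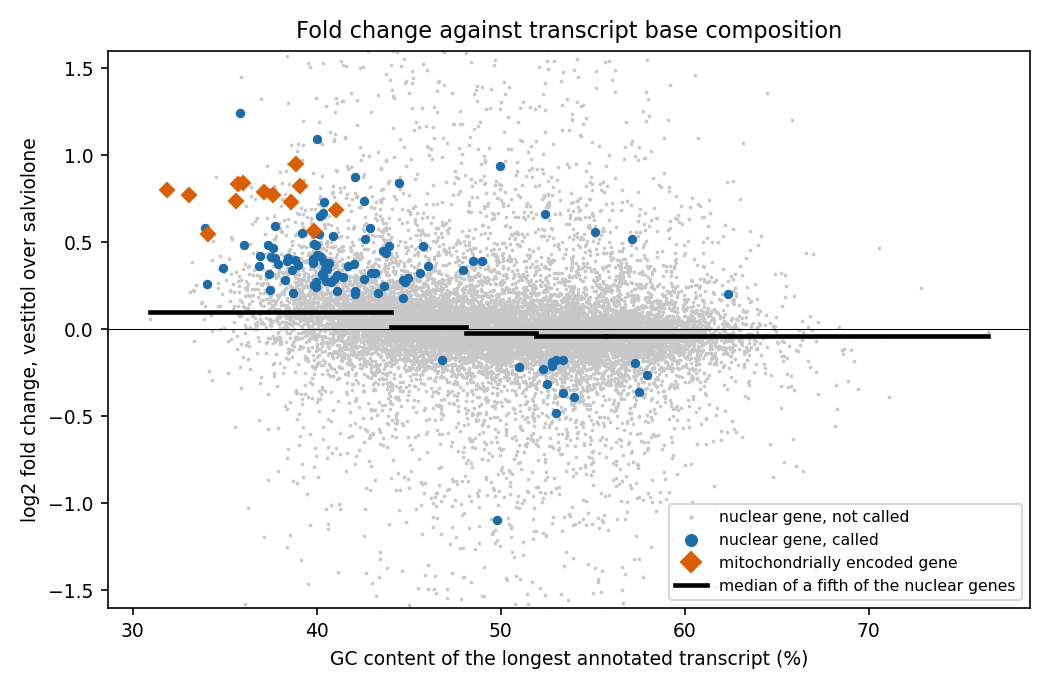
Log2 fold change of vestitol over salviolone (y axis) against the G and C content of the longest annotated transcript (percent, x axis), 1 point a gene; 270 genes beyond ±1.6 are not drawn. Black lines are medians of the 5 equal parts of the nuclear genes. The medians run between 0.10 at the left and -0.04 at the right, and the 13 mitochondrial genes lie above the line of their range.

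Of the marker lists of tissue outside the cortex, those of meninges, thalamus, striatum and choroid plexus (given further below) had values on 1 side of 0. Nearly all of their genes missed the test. Some other lists were mixed, with 9 of 15 hippocampus genes and 12 of 21 hypothalamus and basal forebrain genes above 0. The same held for 5 of 12 ependyma genes and 6 of 14 cerebellum and olfactory bulb genes. The 14 meninges genes summed to 207 to 373 CPM in vestitol mice and 354 to 827 CPM in salviolone mice, all 14 had negative log2 values (median -0.79), and 11 had an unadjusted p under 0.05, with none called. Aldh1a2, which makes retinoic acid in meninges, was at -1.13 ± 0.31 (adjusted p = 0.0941), and Slc6a13, a meningeal GABA transporter, at -0.99 ± 0.26 (adjusted p = 0.0888). The 15 thalamus genes, Zic1 and Zic4 among them, were all negative (median -0.65), summing to 268 to 481 CPM with vestitol and 323 to 785 CPM with salviolone. The 15 striatum genes were all positive (median 0.44), with 10 at an unadjusted p under 0.05, and summed to 2003 to 2900 CPM with vestitol and 1403 to 1898 CPM with salviolone, without overlap. Ppp1r1b, the striatal phosphoprotein DARPP-32, was at 0.50 ± 0.13 (adjusted p = 0.0753). The part of these tissues in the calls above was not tested as a cause. When the meninges, striatum and thalamus scores entered the model as covariates, 1 gene was called, mt-Nd3, while the median over the 13 mitochondrial genes was 0.98.

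**Figure D5:**
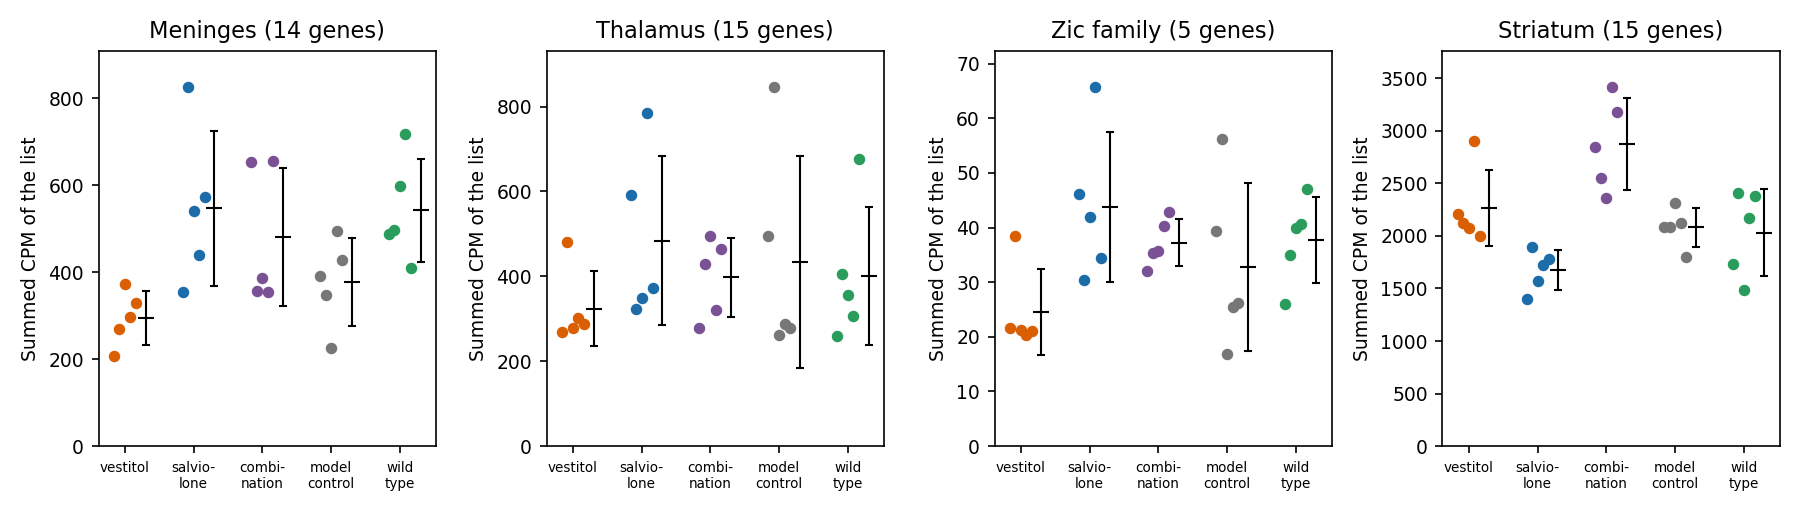
Summed CPM (y axis, from 0) of 4 marker lists in each mouse of the 5 groups on the x axis, with the mean and SD of 5 mice. Vestitol mice reach lower sums than salviolone mice for meninges (373 CPM at most with vestitol, 827 CPM at most with salviolone) and higher sums for striatum (at least 2003 CPM with vestitol, at most 1898 CPM with salviolone).

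Choroid plexus genes were negative in 15 of 15 (median -0.97), with sums of 203 to 247 CPM under vestitol and 190 to 502 CPM under salviolone, the highest in salviolone mouse 1. Blood cell genes were level, 5 of 10 above 0, with sums of 172 to 308 CPM for vestitol and 174 to 320 CPM for salviolone. Of 25 immediate-early genes, which neurons switch on with activity and handling, 22 were negative and 9 had an unadjusted p under 0.05 (median -0.28), again with none called. Dusp1, an early phosphatase, was at -0.47 ± 0.17 (adjusted p = 0.26).

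None of 28 genes of plaque-associated microglia was called, and 21 had values below 0 (median -0.07), with single values between -0.49 and 0.65. Trem2, the lipid receptor of these cells, had 18.9 to 31.8 CPM with vestitol and 19.8 to 30.1 CPM with salviolone (-0.12, 95% interval -0.45 to 0.21), beside a mean of 9.38 CPM in wild type mice. Cst7, a protease inhibitor raised near plaques, had a difference of -0.00 with a 95% interval of -0.64 to 0.63. Gfap, the filament of reactive astrocytes, had 395 to 620 CPM with vestitol and 487 to 599 CPM with salviolone (-0.07, interval -0.37 to 0.23). App itself was at -0.18 ± 0.07 (adjusted p = 0.322) and Prnp at -0.10 ± 0.07 (adjusted p = 0.613).

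None of the lists of homeostatic microglia, reactive astrocytes, complement, interferon response, antioxidant response, heat shock, unfolded protein response, cholesterol synthesis, circadian clock, amyloid processing, excitatory synapse, inhibitory neurons, myelin or endothelium held a call. Their medians lay between -0.07 for myelinating oligodendrocytes and the antioxidant response and 0.14 for endothelium. Close to a call in these lists were Gria2, a glutamate receptor subunit, at 0.23 ± 0.06 (adjusted p = 0.061), and Mme, the amyloid-degrading peptidase neprilysin, with 4.66 to 9.35 CPM in vestitol mice and 3.03 to 5.00 CPM in salviolone mice (0.90 ± 0.22, adjusted p = 0.0596). A p that misses the threshold does not show that the compounds act alike.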

How the data were processed

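Per the labels' protocols, total RNA of brain cortex was made into libraries, and the kits named are TruSeq RNA v2 and, in another sentence, SMARTER mRNA-Seq. Per the submitters' processing notes, Trim Galore and STAR were used with the mm39 build, without versions. The counting tool, annotation and strand setting are not stated there or in the labels. The authors deposited raw counts and FPKM of each gene for the same 25 libraries. The table holds 21720 genes, 2769 of them at 0 throughout. Of counts between 4 and 39, 44.3% were multiples of 4 (25% by chance), which is not explained, and counts divided by 4 were tried. The gene lengths that the deposited FPKM imply do not follow annotated lengths (r = 0.212 of the logs over 18471 genes), so FPKM were used only within a gene, and levels per kb were taken from counts and the table's coordinates.

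Genes were kept with edgeR's filterByExpr (minimum count 10), which left 16515. TMM scaling and the robust quasi-likelihood test (edgeR 4.0.16, R 4.3.3, two-sided) were applied in 1 model of all 25 mice, with Benjamini-Hochberg adjustment over all genes. The G and C offset was a loess (span 0.3) of each library's log2 CPM deviations on the content of the longest GENCODE M21 transcript. It and the covariates of meninges, striatum and thalamus scores (mean log2 CPM) were chosen after seeing the data. The methods were tested on simulated data. Alternatives were RLE factors, other filters, DESeq2 1.42.0, limma 3.58.1 on counts and on log2 FPKM, fewer mice, no mitochondrial genes, covariates and a replicate block.

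Genes were named by rule: in each direction the 10 calls of lowest adjusted p whose mean log2 CPM reached 1, called members of 48 lists with 905 names, mt-Co3, mt-Nd5, Cox6b1, Taco1, Zic5, the 13 mitochondrial genes, App, Prnp and, from each list described, the 2 genes of lowest p. The genes and lists were chosen with earlier results of these data known. The labels do not say that mice of a group were housed or handled apart, so p-values measure the spread between these mice. Counting limits cover counting error only. A few single-gene results are not reported here.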

Additional observations from a re-analysis of the deposited data

Results flagged for a closer look

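In 112 sets of 5 values, 1 set for each gene or marker sum described and each compound, 1 mouse lay far from the other 4 of its group in 12, by the gap to the nearest mouse over the whole range (above 0.71). Chance gives about 1 in 20 such sets, and the sums share genes with each other.

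Vestitol mouse 2 had 38.5 CPM summed over the Zic family, with 20.4 to 21.5 CPM in the other vestitol mice, and 481 CPM over the thalamus genes, with 268 to 302 CPM in the others. Zic1 and Zic4 are in both lists. Zic5, the called member, had 1.85 CPM in that mouse, the lowest of its group.

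Vestitol mouse 4 had 2900 CPM summed over the striatum genes (2003 to 2212 CPM in the other vestitol mice), 203 CPM over the hypothalamus and basal forebrain genes (119 to 136 CPM) and 480 CPM of Ppp1r1b (354 to 372 CPM). Salviolone mouse 1 had 502 CPM summed over the choroid plexus genes, beside 190 to 274 CPM in the other salviolone mice.

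Among single genes, Dgkb stood at 98.9 CPM in salviolone mouse 2 (83.8 to 87.5 CPM in the others), Abcg2 at 6.27 CPM in salviolone mouse 4 (8.58 to 9.12 CPM), and Higd2a at 44.4 CPM in vestitol mouse 3 (40.5 to 41.4 CPM). Meningeal genes stood apart in vestitol mice as well, Slc6a13 at 4.17 CPM in mouse 1 (5.37 to 5.68 CPM in the others) and Aldh1a2 at 3.57 CPM in mouse 3 (2.31 to 2.45 CPM). Cbln1, a synaptic organiser of the cerebellum and olfactory bulb list, stood at 2.89 CPM in vestitol mouse 5 (4.37 to 4.97 CPM).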

How the results depend on the processing

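The count of 113 called genes was 276 with DESeq2 (212 higher, 64 lower), 41 with only the 10 vestitol and salviolone mice in the model (37 and 4), 20 with the G and C offset (75.0% higher, against 86.7% without it), 1 with the meninges, striatum and thalamus scores, 0 for a change beyond 1.5-fold by edgeR's glmTreat (177 at an unadjusted p under 0.05) and 1935 at an unadjusted p under 0.05. Leaving out 1 mouse gave 14 to 204 calls: 39, 35 and 40 without vestitol mouse 1, 2 and 4, and 204, 14, 30 and 24 without salviolone mouse 1, 3, 4 and 5, with 10 to 13 mitochondrial genes among them. The cause of these moves was not tested. Other settings gave 86 to 160. The replicate block gave 150 calls, 109 of them shared. Same-numbered mice did not deviate together more than others (correlations -0.0175 to 0.0401, against -0.0550 to 0.0579). This cannot tell whether the numbers pair mice. The mitochondrial median of 0.77 was 0.56 with the offset and 0.98 with the 3 scores, and the difference in share kept its direction and a p of at most 0.0159 throughout, at 0.273 to 0.326 percentage points when 1 mouse was left out. With their own scores as covariates the medians were 0.11 for meninges, -0.025 for striatum and 0.013 for choroid plexus, and Aldh1a2 was 0.24. A score is the mean of the list's own genes, so these medians move toward 0 by construction and test nothing. Of 1287 gene values under alternatives, 1005 kept direction and call, 29 gained a call, 1 reversed (this value of Aldh1a2) and the rest lost the call. The share without mitochondrial rRNA genes was not run, since the table analysed here lists none, and a mitochondrial median without these genes has no value.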

Other observations

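Lcn2, an acute-phase protein, and S100a9, a neutrophil protein, are named after their values were seen. Vestitol mouse 5 had 8.69 CPM of Lcn2 and 4.43 CPM of S100a9, while the other 9 mice of both compounds had at most 0.394 and 0.303 CPM of them. In the other groups the highest Lcn2 values were 1.92 CPM in combination mouse 5, 2.05 CPM in model control mouse 2 and 4.85 CPM in wild type mouse 3, and S100a9 reached at most 0.861 CPM, in model control mouse 2. Neither gene was called between the compounds (edgeR, adjusted p = 0.50 for Lcn2 and 0.28 for S100a9).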
